A study of Mus musculus with 15 samples.

Results

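The Hox genes encode homeodomain transcription factors and lie in 4 clusters, Hoxa on chromosome 6, Hoxb on chromosome 11, Hoxc on chromosome 15 and Hoxd on chromosome 2. They were followed here in sorted mouse kidney cells over the first days after birth. A gene was taken as a member when its only symbol in the platform annotation was Hoxa, Hoxb, Hoxc or Hoxd followed by a number, and this gave 37 of the 19938 genes with a single symbol. There were 10 members in Hoxa and 9 in each of Hoxb, Hoxc and Hoxd. Hoxb8 shared its probe set with Hoxb7 and was therefore not a member.

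Within a cluster the genes are numbered from the 3′ to the 5′ end, and genes of the same number in different clusters are paralogues that arose by duplication of a whole cluster. During body axis formation the low numbers are switched on early and toward the head, and the high numbers late and toward the tail, so that a tissue carries a record of its axial position in the Hox genes that it expresses. In the mouse kidney the paralogues of group 11 are required for the metanephric mesenchyme to call in the ureteric bud, acting with Eya1 and Pax2 on Six2 and Gdnf, and those of group 10 are known for the patterning of the stroma.

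The cells came from CD-1 mice that carry the reporter Tg(Crym-EGFP)82Gsat, a bacterial artificial chromosome in which Crym sequence drives green fluorescent protein, and all groups share this transgene, trypsin dissociation and fluorescence sorting. The pups were raised by CD-1 foster mothers, their sex was not recorded, and each sample was a pool of about 4 kidneys. Samples were collected on postnatal days P0, P1, P2, P3 and P4, with 3 per day, and hybridised to 1 array each after 1 round of amplification. The source was given as cap mesenchyme, the nephron progenitors around the ureteric bud tips, for the 12 samples of P0 to P3, and as renal vesicle, the first epithelial stage of the nephron, for the 3 samples of P4, whereas the design text names cap mesenchyme for every day. Age and labelled compartment change together at P4 and cannot be told apart. The labels do not tell whether the 3 pools of 1 day had different litters as their source. A p-value here therefore sets a difference against the spread among pools, which may be technical, and 3 arrays per day limit its precision.

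Markers of the labelled compartments differed at P4, and part of that shift came before the label changed. In the limma tests described below, all 8 cap mesenchyme markers, Crym and Six2 among them, were lower at P4 than over P0 to P3 and 7 of 9 renal vesicle markers were higher. Over P0 to P3 alone, 5 of the 8 already had a falling slope and 6 of the 9 a rising one. Between P3 and P4, 5 of the 8 were lower (Crym, Meox1, Itga8, Eya1 and Six2) and 0 of the 9 were called. Of all tested genes, 2.32% were called lower and 3.41% higher at P4 than over P0 to P3. In either direction, 3.13% were called for the slope and 1.49% between P3 and P4. Endothelial cells left little trace, with 0 of 6 of their markers above background on any array. Of 5 macrophage markers, Cd68 was above it on 14 arrays, C1qa on 8 and the other 3 on none. The 2 erythroid markers measured, Alas2 and Slc4a1, were above it on 14 and 11 arrays. Cd68, Alas2 and Slc4a1 were tested and not called at P4. Ureteric bud markers rose in part: Gata3 and Krt8 were called higher of 6 tested, and the log2 of the summed level of the 10 measured ranged from 9.82 to 10.24 over P0 to P3 and from 10.42 to 10.59 at P4. Ret, Calb1 and Elf5 were above background on no array. Wnt9b and Aqp2 were above it on all 15 and Wnt7b on 10, with differences of 0.01, 0.11 and 0.04 that were not called. Krt18, above background on 11 arrays, was not called either, but its difference was 0.53 ± 0.15 (SE), with an adjusted p of 0.057 in limma. Of 11 stroma markers tested, Foxd1 was lower and the other 10 were not called, with a summed log2 level of 11.60 to 12.22 over P0 to P3 and 11.78 to 12.09 at P4. The first replicates of all 5 days stood apart from the other 10 arrays, with an interquartile range of 2.14 to 2.27 on the log2 scale against 2.52 to 2.77.

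A gene was counted as above background on an array when its deposited log2 value exceeded the level below which 95% of 1224 odorant, vomeronasal and bitter taste receptor genes lay on the same array. That limit was 7.03 to 7.26 on the first replicates and 6.34 to 6.72 on the other arrays. By this measure 27 of the 37 Hox genes were above background on all 15 arrays, which is 73% of them, against 38.6% of all genes.

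At this limit, detection followed position in the cluster. In paralogue groups 4 to 8, 13 of 14 genes were above background on every array, and the exception, Hoxc5, failed only on P4 replicate 1, by 0.09. In groups 9 to 11 it was 9 of 10, the exception being Hoxc11, which was above background on no array. None of the 6 genes of groups 12 and 13 was above background throughout: Hoxa13, Hoxb13, Hoxc12, Hoxc13 and Hoxd13 were below the limit on all 15 arrays. The group 13 genes are known for the digits, the genital tubercle and the hindgut, the most posterior territories. At the 3′ end, 5 of 7 genes of groups 1 to 3 were above background on every array, Hoxa3 was so on 10 arrays, all of them replicates 2 and 3, and Hoxd1 on none. By cluster, 8 of 10 Hoxa, 8 of 9 Hoxb, 5 of 9 Hoxc and 6 of 9 Hoxd genes were above background on all 15 arrays.

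**Figure D1:**
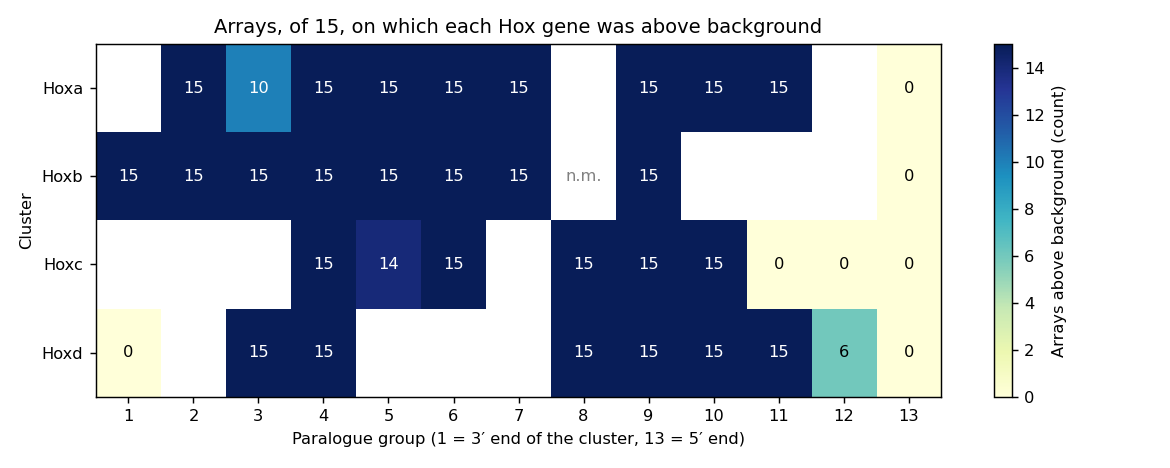
Number of arrays, of 15, on which each Hox gene was above background (colour and digit), by cluster (rows) and paralogue group (columns); empty cells hold no member, and n.m. marks Hoxb8, which was not measured on a probe set of its own. Genes of groups 4 to 10 reach 14 or 15 arrays and those of group 13 reach 0.

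Hoxd12 was the only gene of groups 12 and 13 with any value over the limit. Its 12 values over P0 to P3 ranged from 6.35 to 6.95 with a median of 6.64, and those of P4 were 6.07, 6.14 and 6.39. It was above background on 6 arrays, 2 each at P0, P1 and P2, and on none at P3 or P4. It did not pass the filter on dim genes. In a fit without that filter, limma gave a difference of -0.43 ± 0.12 (SE) at P4, with an adjusted p of 0.059.

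Levels were compared between days with limma, using a mean for each day, all 15 arrays and Benjamini-Hochberg adjustment over the 11885 genes that were above the median of all values in at least 3 arrays. Of the Hox genes, 29 passed this filter: 9 Hoxa, 8 Hoxb, 6 Hoxc and 6 Hoxd. A gene was called at an adjusted p below 0.05. As the first replicates stood apart, the fit was repeated with first replicates against the others as a block, and the differences within the first replicates and within replicates 2 and 3 were set beside it.

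Between P4 and the mean of P0 to P3, 6 of the 29 Hox genes were called, where 5.73% of all tested genes were. Hoxa5, Hoxa11, Hoxc4, Hoxc6 and Hoxd10 were lower at P4, 5 genes against a background of 2.32% for lower calls, and Hoxd8 alone was higher, against 3.41%. The same 6 genes did not overlap between the labels: in these 5 all 3 P4 samples lay below all 12 earlier ones, as in 1.4% of tested genes, and for Hoxd8 all 3 lay above, as in 2.38%. With the first replicates as a block the count was 11, against 11.5% of all genes. The 10 lower genes, against 5.06%, were those 5 with Hoxc5, Hoxc8, Hoxc9, Hoxc10 and Hoxd11, and Hoxd8 remained the only higher one, against 6.41%. The median log2 difference of the 29 Hox genes was -0.08, and that of all tested genes 0.00. In pooled cells a lower value can come from fewer cells that express a gene or from less RNA in each, and these cannot be told apart.

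**Figure D2:**
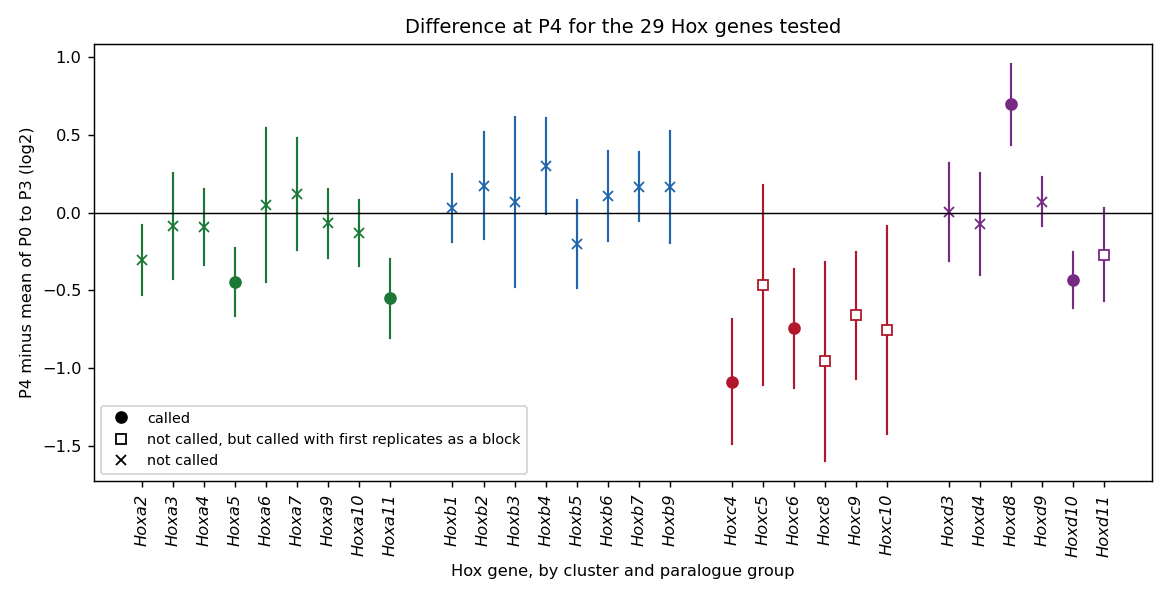
Difference in log2 value between P4 and the mean of P0 to P3 for the 29 Hox genes tested, with 95% confidence intervals of the limma fit without a block; the fit used 3 samples at P4 and 12 before it. The 6 Hoxc genes lie between -1.09 and -0.47, the 8 Hoxb genes between -0.20 and 0.30, and Hoxd8 is highest at 0.70.

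All 6 tested Hoxc genes had lower mean values at P4 than before, with a median difference of -0.75 and a range of -1.09 to -0.47. Of these, 2 were called without a block and 6 with the first replicates as a block. The mean over the 6 genes was 9.25 ± 0.44 (SD, n = 3), 9.31 ± 0.40, 9.32 ± 0.35 and 9.02 ± 0.33 on P0 to P3, and 8.44 ± 0.38 at P4. In the Hoxb cluster 0 of 8 genes were called in either fit, with a median difference of 0.13 and a range of -0.20 to 0.30, and their mean was 8.87 ± 0.20, 8.84 ± 0.16, 8.78 ± 0.18, 8.75 ± 0.17 and 8.91 ± 0.19 from P0 to P4. The medians were -0.09 for 9 Hoxa genes (-0.55 to 0.12) and -0.03 for 6 Hoxd genes (-0.43 to 0.70). The difference between clusters was not tested.

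Hoxc4, known in the mouse for the vertebrae and the muscle of the esophagus, had the lowest difference of the 29 Hox genes in the fit to all 15 arrays. On replicates 2 and 3 alone that of Hoxc8 was lower, at -1.11. The values of Hoxc4 over P0 to P3 ranged from 8.46 to 9.55 with a median of 9.02, and the 3 P4 samples had 7.53, 8.39 and 8.02. All P4 samples were below all earlier ones. The difference was -1.09 ± 0.19 (SE), a 2.13-fold lower level, with an adjusted p of 0.0021 in limma and 7.9e-06 with the first replicates as a block. It was -1.26 within the first replicates, -0.95 within the second and -1.05 within the third. Hoxc4 was also the Hox gene with the lowest p in the test for any difference among the 5 days, and its level was already lower at P3, at 8.66 ± 0.28 (SD, n = 3) against 9.28 ± 0.32 at P2.

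Hoxc6, a gene of the thoracic region, had values of 8.70 to 9.58 with a median of 9.18 over P0 to P3 and of 8.27, 8.38 and 8.61 at P4. The groups did not overlap. The difference was -0.74 ± 0.18 (SE), 1.68-fold lower, with an adjusted p of 0.021 in limma without a block. Hoxc6 lost its call without any 1 of the 3 P4 samples, with adjusted p values of 0.11, 0.11 and 0.052, while the difference stayed between -0.84 and -0.67.

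The other 4 Hoxc genes were called with the first replicates as a block and not in the fit without a block to all 15 arrays, and in all 6 the first replicate was the lowest sample on every day. Hoxc8, which sets thoracic identity in vertebrae and motor neurons, ranged from 8.66 to 10.13 with a median of 9.64 over P0 to P3 and had 8.26, 8.30 and 9.11 at P4. P4 replicate 3 lay within the earlier range. Its difference was -0.96 ± 0.30 (SE), with an adjusted p of 0.090 without a block and 6.0e-04 with the first replicates as a block.

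Hoxc9, a determinant of thoracic motor neurons, ranged from 9.70 to 10.56 with a median of 10.33 and had 9.04, 9.97 and 9.69 at P4, where replicate 2 overlapped the earlier samples. Its difference was -0.66 ± 0.19 (SE), with an adjusted p of 0.058 without a block and 2.1e-04 with it. Hoxc10, a group 10 gene of the lumbar region, ranged from 8.67 to 9.88 with a median of 9.55 and had 8.02, 9.17 and 8.64 at P4. Its difference was -0.76 ± 0.31 (SE), with an adjusted p of 0.25 without a block and 3.5e-04 with it.

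Hoxc5 was the detected Hoxc gene nearest to its limit, from 7.20 to 8.67 with a median of 8.18 before P4 and 6.95, 7.88 and 7.77 at P4. Its difference was -0.47 ± 0.30 (SE), with an adjusted p of 0.59 without a block and 0.028 with it. The within-number differences of Hoxc5 were alike, -0.49, -0.45 and -0.47 for replicates 1, 2 and 3. For all 6 Hoxc genes the P4 sample was below the mean of the earlier samples of the same replicate number in each of the 3 numbers.

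**Figure D3:**
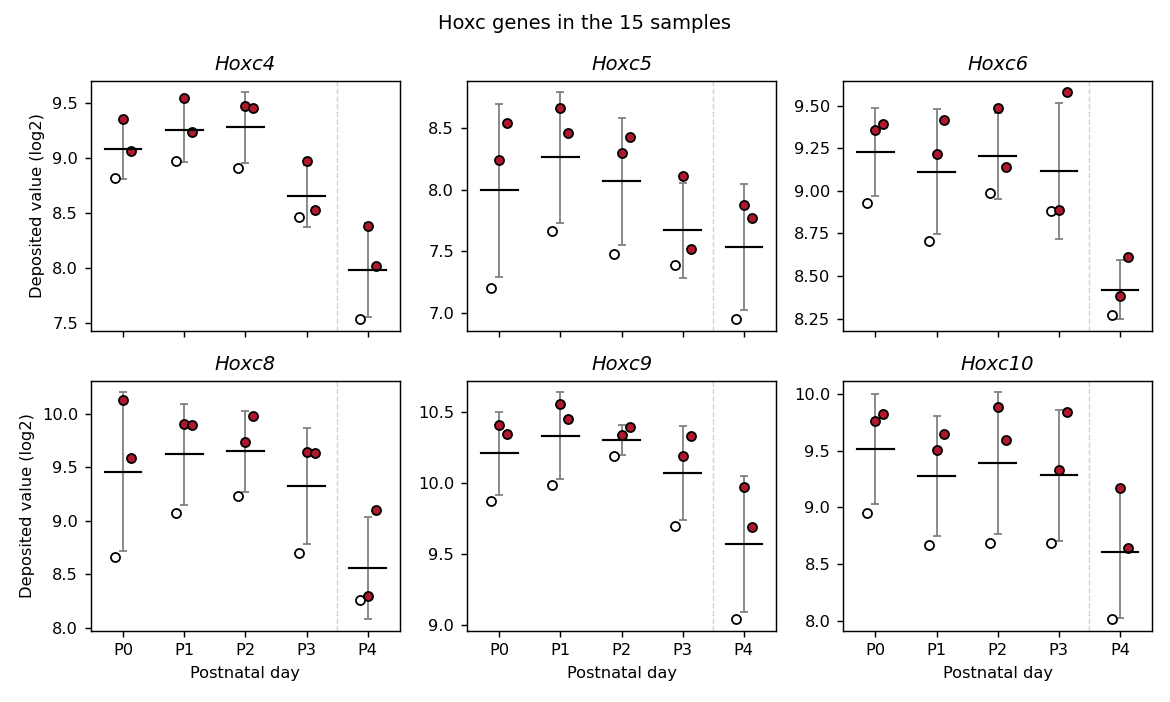
Deposited log2 values of the 6 tested Hoxc genes in each of the 15 samples by postnatal day (open circles, first replicates; filled circles, replicates 2 and 3), with the mean and SD of the 3 samples of a day; each panel has its own scale and the dashed line marks the change of label. The P4 samples of Hoxc4 and Hoxc6 lie below all earlier ones, and the first replicate is the lowest of every day in all 6 genes.

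Hoxd8 rose at P4 while its neighbours in the cluster fell or were not called. The values of Hoxd8 ranged from 7.50 to 8.24 with a median of 8.03 over P0 to P3 and were 8.72, 8.82 and 8.54 at P4, above every earlier sample. The difference was 0.70 ± 0.12 (SE), 1.62-fold higher, with an adjusted p of 0.0023 in limma and 4.9e-04 with the first replicates as a block. It was 0.63 within the first replicates and 0.73 within replicates 2 and 3, and the call held without each of the 15 samples in turn. Hoxd9, the next gene on the 5′ side, had the narrowest range of the 29 genes over P0 to P3, from 8.13 to 8.28 before P4 and 8.34, 8.20 and 8.30 at P4. Its difference was 0.07 ± 0.07 (SE), with an adjusted p of 0.85 and a 95% interval of -0.09 to 0.23.

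Hoxd10, a group 10 gene known for lumbar motor neurons and the hindlimb, is the gene after Hoxd9. Its values ranged from 11.19 to 11.64 with a median of 11.38 over P0 to P3 and were 10.99, 11.04 and 10.87 at P4, below every earlier sample. The difference was -0.43 ± 0.08 (SE), 1.35-fold lower, with an adjusted p of 0.0052 in limma. It was -0.37 within the first replicates and -0.46 within replicates 2 and 3. Its call was lost without P4 replicate 3, with an adjusted p of 0.053, and, at a difference of -0.46, when every array was scaled to the same interquartile range, with an adjusted p of 0.36.

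In group 11, Hoxa11 fell, and Hoxd11 was called with the block and not without it. Hoxa11 ranged from 9.33 to 9.94 with a median of 9.59 before P4 and had 8.94, 9.22 and 9.05 at P4, with no overlap. The difference was -0.55 ± 0.12 (SE), 1.47-fold lower, with an adjusted p of 0.011 in limma. It was -0.52 within the first replicates and -0.57 within replicates 2 and 3, and without P4 replicate 1 or P4 replicate 3 the adjusted p was 0.075 or 0.069. Hoxd11 ranged from 9.78 to 10.20 with a median of 10.10 before P4 and had 9.40, 9.95 and 9.93 at P4, of which only the first replicate lay below the earlier range. Its difference was -0.27 ± 0.14 (SE), with an adjusted p of 0.42 without a block and 0.027 with it. Hoxc11 lay between 5.38 and 5.75 before P4 and had 5.43, 5.64 and 5.41 at P4, all below background.

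In group 10, the third member, Hoxa10, was not called. It ranged from 8.44 to 8.99 with a median of 8.78 before P4 and had 8.67, 8.48 and 8.74 at P4. The difference was -0.13 ± 0.10 (SE), with an adjusted p of 0.69 and a 95% interval of -0.35 to 0.08. Values of all 5 detected genes of groups 10 and 11 were thus lower on average at P4, and 2 of them were called without a block and 4 with it.

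Hoxa5, which is needed for the respiratory tract in the mouse, was the other Hoxa gene called. Its values ranged from 8.90 to 9.33 with a median of 9.05 before P4 and were 8.74, 8.74 and 8.48 at P4, below every earlier sample. The difference was -0.45 ± 0.10 (SE), 1.36-fold lower, with an adjusted p of 0.015 in limma. It was -0.26 within the first replicates and -0.54 within replicates 2 and 3, and without P4 replicate 3 the adjusted p was 0.14.

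**Figure D4:**
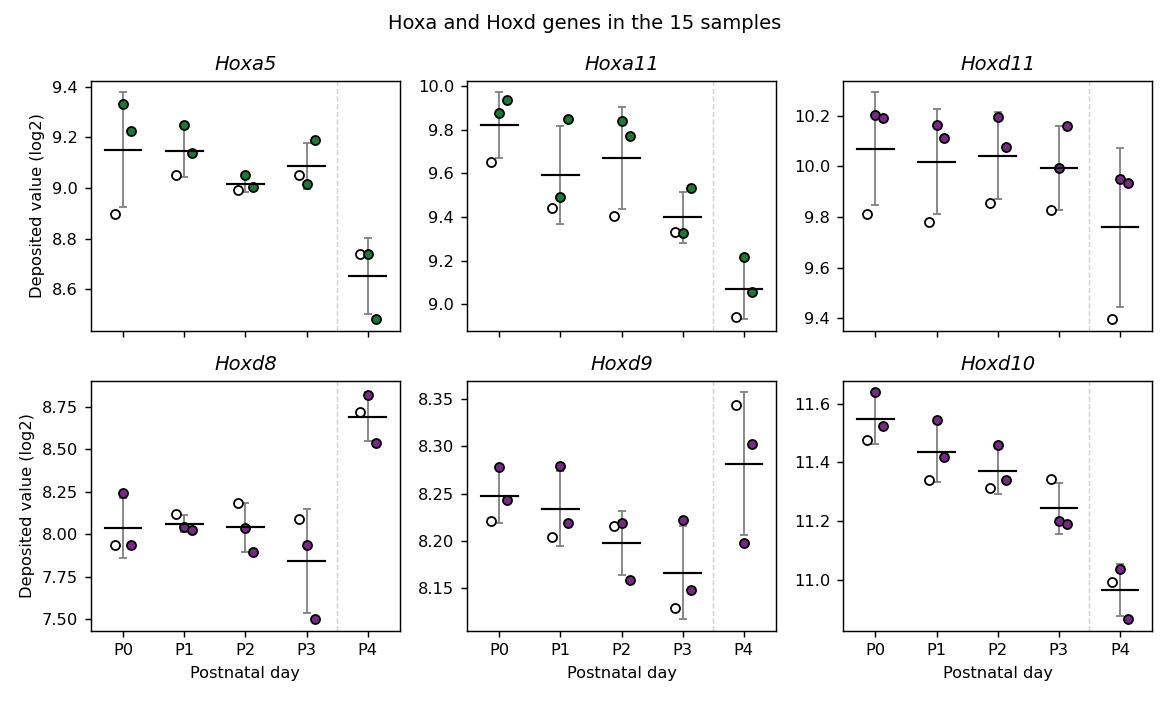
Deposited log2 values of Hoxa5, Hoxa11, Hoxd11, Hoxd8, Hoxd9 and Hoxd10 in each of the 15 samples by postnatal day (open circles, first replicates; filled circles, replicates 2 and 3), with the mean and SD of the 3 samples of a day; each panel has its own scale. Hoxd8 rises at P4, Hoxa5, Hoxa11 and Hoxd10 fall below all earlier samples, and Hoxd9 stays between 8.13 and 8.34.

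When single samples were left out, between 2 and 8 Hox genes were called between P4 and the earlier days. P4 replicate 3 weighed most on the Hox count: without it only Hoxc4 and Hoxd8 were called, where 3.21% of all tested genes were. Without P4 replicate 2 that share was 3.21% as well, with 6 Hox genes called. Leaving out P0 replicate 1 or P3 replicate 1 gave 8 (5.75% or 5.41% of all tested genes), by adding Hoxc8 and Hoxc9.

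Paralogues of a group had different calls. In group 4, Hoxc4 fell by 1.09 while Hoxb4 had a difference of 0.30 ± 0.14 (SE) with an adjusted p of 0.37, and Hoxa4 and Hoxd4 were at -0.09 and -0.07. In group 8, Hoxd8 rose by 0.70 and Hoxc8 was at -0.96. In group 6, Hoxc6 fell by 0.74 and Hoxa6 and Hoxb6 were at 0.05 and 0.11. In group 9 the differences were -0.07 for Hoxa9, 0.16 for Hoxb9, -0.66 for Hoxc9 and 0.07 for Hoxd9. Differences between paralogues were not tested.

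Promoter sequences are shown for the 3 neighbours Hoxd10, Hoxd9 and Hoxd8, since they moved in different ways side by side, and for Hoxc4 and Hoxa11, called lower at P4 in the Hoxc and Hoxa clusters. They run 5′ to 3′ along the gene, from 250 bases before to 50 after an annotated start, and were taken from RefSeq (GRCm38.p6). Capitals mark matches on either strand to CCAAT, to GGGCGG, the GC box, and to AGGTCA, a hexamer recognised by nuclear receptors such as the retinoic acid receptors, which act on Hox genes in the embryo.
Hoxd10, chr2:74691641-74691940, plus strand: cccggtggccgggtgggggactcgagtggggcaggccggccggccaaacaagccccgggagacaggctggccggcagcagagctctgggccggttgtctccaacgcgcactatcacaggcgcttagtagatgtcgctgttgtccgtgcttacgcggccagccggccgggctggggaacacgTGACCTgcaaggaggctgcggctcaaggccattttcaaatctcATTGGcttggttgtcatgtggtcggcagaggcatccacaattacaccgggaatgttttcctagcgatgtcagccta
Hoxd9, chr2:74697513-74697812, plus strand: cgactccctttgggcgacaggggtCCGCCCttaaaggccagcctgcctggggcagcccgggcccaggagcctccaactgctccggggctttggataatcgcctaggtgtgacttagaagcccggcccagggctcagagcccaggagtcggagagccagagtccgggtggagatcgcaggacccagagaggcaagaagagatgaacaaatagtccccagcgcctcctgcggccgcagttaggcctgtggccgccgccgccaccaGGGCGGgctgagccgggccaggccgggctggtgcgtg
Hoxd8, chr2:74704365-74704664, plus strand: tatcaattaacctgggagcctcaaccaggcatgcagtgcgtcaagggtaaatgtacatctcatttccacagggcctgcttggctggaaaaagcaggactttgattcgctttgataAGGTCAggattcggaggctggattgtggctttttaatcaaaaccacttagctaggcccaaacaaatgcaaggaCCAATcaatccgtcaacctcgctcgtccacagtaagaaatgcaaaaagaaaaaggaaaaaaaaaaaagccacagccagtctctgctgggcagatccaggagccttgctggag
Hoxc4, chr15:103034145-103034444, plus strand: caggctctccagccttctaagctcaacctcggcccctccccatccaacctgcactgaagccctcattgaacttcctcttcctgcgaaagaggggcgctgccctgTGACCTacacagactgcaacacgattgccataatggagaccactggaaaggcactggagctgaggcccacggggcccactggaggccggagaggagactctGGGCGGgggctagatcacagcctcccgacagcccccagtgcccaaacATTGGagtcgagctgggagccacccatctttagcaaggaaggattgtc
Hoxa11, chr6:52245761-52246060, minus strand: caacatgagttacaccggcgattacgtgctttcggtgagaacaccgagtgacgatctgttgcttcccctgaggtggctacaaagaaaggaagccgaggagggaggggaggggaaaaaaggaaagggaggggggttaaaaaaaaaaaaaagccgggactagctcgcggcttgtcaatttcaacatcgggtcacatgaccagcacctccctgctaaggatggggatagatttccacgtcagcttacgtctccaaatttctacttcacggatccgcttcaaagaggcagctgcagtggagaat

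The Hoxd8 promoter held CCAAT 62 bases and AGGTCA 135 bases before the start, and that of Hoxd10 held both as reverse complements, 26 and 69 bases before it. The promoter of Hoxd9 between them had neither, and a pair of GC boxes instead. Thus the gene that rose and the gene that fell shared the same motifs, and a match is a description of the letters only. The Hoxa11 promoter matched none of the 3 motifs. Across the 23 promoters that the table holds for 21 members, AGGTCA was found in 7 (16.3% of all 32851 mouse promoters of this length), CCAAT in 14 (37.4%) and GGGCGG in 9 (35.7%). The motif TGATNNAT, a composite of Hox and Pbx sites, was found in 3, those of Hoxa2, Hoxb1 and Hoxd11, against 8.85% of all promoters, and TGACAG, bound by Meis and Pknox proteins, in 2, those of Hoxa2 and Hoxa3, against 19.2%. The Hox promoters had a median of 15 CpG dinucleotides, against 7 in all promoters of the same length.

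Over the days labelled cap mesenchyme, P0 to P3, no Hox gene had a slope that was called by limma, where 3.13% of all tested genes were, and 4 of the 29, Hoxd4, Hoxd10, Hoxa11 and Hoxb5, had an unadjusted p below 0.05, where 12.4% of all tested genes did. Among these days each same-numbered pair of samples deviated together from its day means. Pairs of unlike number were not compared, so this cannot separate pairing by number from the split of first replicates. With the replicate number as a block 3 genes were called, all with falling levels, against 4.48% of all tested genes for falling slopes. Hoxd4, a gene of the hindbrain and neck, fell by 0.20 ± 0.04 (SE) per day, with an adjusted p of 0.0078. Its day means were 9.28, 9.10, 9.18, 8.59 and 8.97 from P0 to P4, so that its P4 level lay above that of P3. Hoxb5, known for enteric neural crest, fell by 0.13 ± 0.03 (SE) per day, with an adjusted p of 0.020. Hoxc4 fell by 0.12 ± 0.03 (SE) per day, with an adjusted p of 0.038, but was not called with the first replicates as a block (adjusted p of 0.12). On replicates 2 and 3 alone no Hox slope was called, where 3.49% of all tested genes were, and Hoxc4 had an adjusted p of 0.34. Markers moved over the same days in the fit without a block: Crym, Six2, Meox1, Cited1 and Gdnf of the cap mesenchyme fell, as did Foxd1 (-0.48 per day), Dcn (-0.35) and Pdgfra (-0.32) of the stroma, and 6 renal vesicle markers rose. Their part in the Hox slopes was not tested.

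Between the adjacent days P3 and P4, the labels on either side of the change, Hoxd8 alone was called, higher by 0.85 ± 0.15 (SE), 1.80-fold, with an adjusted p of 0.0098 in limma, against 1.04% of all tested genes for higher calls. Without P4 replicate 2 its adjusted p was 0.073. With the replicate number as a block Hoxd8 was still the only higher gene, against 2.31%, and 5 genes were lower, against 1.25%. All 5 were of the Hoxc cluster: Hoxc4 by -0.68 (adjusted p of 0.0023), Hoxc6 by -0.70 (0.017), Hoxc8 by -0.77 (0.048), Hoxc9 by -0.50 (0.037) and Hoxc10 by -0.67 (0.021). Hoxa5 was at -0.43, with an adjusted p of 0.18 without and 0.057 with the block. The median difference of the 6 Hoxc genes was -0.68 between P3 and P4, beside -0.75 between P4 and all earlier days.

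An F test of any difference among the 5 days called 4 Hox genes, Hoxc4, Hoxd8, Hoxd10 and Hoxa11, against 5.37% of all tested genes. With the first replicates as a block it called 12, against 11.7%, and the 8 genes added were Hoxa5, Hoxb5, Hoxd4, Hoxc5, Hoxc6, Hoxc8, Hoxc9 and Hoxc10. Without P4 replicate 3 it called 0 in the fit without a block, where 4 had been, and 3.69% of all tested genes.

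Apart from Hoxb5, no Hoxb gene was called in the fits without a block or with either block. Hoxb7, whose promoter is widely used to drive transgenes in the ureteric bud, ranged from 8.18 to 8.45 before P4 and had 8.35, 8.19 and 8.74 at P4, with a difference of 0.17 ± 0.10 (SE) and an adjusted p of 0.57. The probe set shared by Hoxb7 and Hoxb8, which was not tested, ranged from 9.72 to 10.64 before P4 and from 10.19 to 10.84 at P4. Hoxb4 had the highest difference of the cluster, 0.30, and Hoxb5 the lowest, -0.20 ± 0.13 (SE), with an adjusted p of 0.60. Hoxb1, a gene of the hindbrain, was above background on every array but by as little as 0.16, and had a difference of 0.03 ± 0.10 (SE). Hoxa2, a gene of the second branchial arch, came as close to the limit, and Hoxd3 closer still with a margin of 0.10. The difference of Hoxa2 was -0.31 ± 0.11 (SE), with adjusted p values in limma of 0.14 without a block and 0.053 with the first replicates as a block. With the replicate number as a block Hoxa2 was called lower at P4, where 12.1% of all tested genes were called in either direction.

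Hox proteins bind DNA with partners of the TALE class, the Pbx, Meis and Pknox homeodomain proteins. Of 8 measured, Meis2 and Meis1 were lower at P4, by -1.38 ± 0.11 (SE), 2.60-fold, and -0.78 ± 0.14 (SE), 1.72-fold, with adjusted p values of 2.1e-06 and 0.0027 in limma. The Pbx and Pknox genes were not called, Pknox2 being nearest with a difference of -0.26 and an adjusted p of 0.38, and the median of the 8 was -0.17. Among the kidney partners and targets of the Hox11 proteins, 5 of 7 tested were lower, namely Six2, Eya1, Itga8, Gdnf and Osr1, with a median of -1.26 for the 7. These 5 are also among the cap mesenchyme markers. Of all tested genes, 2.32% were called lower in this comparison. The other two were Pax2 and Sall1, at -0.11 and -0.10, with an adjusted p of 0.96 for each.

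The regulators of Hox clusters were not called at P4. Of 23 tested, which include the trithorax genes Kmt2a and Kmt2b, the Polycomb genes Ezh2, Eed, Suz12 and Bmi1 and the retinoic acid receptors, 0 were called by limma in this comparison, 2 (Ezh1 and Gdf11) had an unadjusted p below 0.05, where 14.6% of all tested genes did, and their median was 0.04. Ezh1, a Polycomb methyltransferase, had a difference of -0.41 ± 0.14 (SE), with an adjusted p of 0.13. Of 13 neighbours and noncoding RNAs of the clusters, Haglr, a long noncoding RNA between Hoxd3 and Hoxd1, was lower at P4 by -0.85 ± 0.22 (SE) with an adjusted p of 0.037, and Skap2, which flanks the Hoxa cluster, was higher by 0.53 ± 0.15 (SE) with an adjusted p of 0.049. The median of the 13 was -0.07. Of all tested genes, 2.32% were called lower and 3.41% higher. Whether the ureteric bud markers and the cap mesenchyme markers that moved at P4 have a part in the Hox differences was not tested.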

How the data were processed

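Per the labels, Affymetrix Expression Console was used to make the values, which the authors deposited as 1 table of 35557 probe sets in 15 samples. The algorithm, its background correction and the genome build are not stated. The range of 2.38 to 13.76 fits log2 values, and these deposited log2 values entered every test unchanged. Of the probe sets, 21789 had 1 gene symbol in the platform annotation, 1621 several and 12147 none, and the probe set with the highest mean represented each gene. No Hox member had more than 1. Levels were not compared between probe sets.

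Samples were grouped by the day in their labels. All tests were two-sided and used lmFit and eBayes of limma 3.58.1 under R 4.3.3. The fit was checked on simulated data. Genes named are the Hox genes called in any test, those of groups 10 and 11, those at the ends of a range and up to 4 per list. The members, gene lists and tests were chosen with earlier results of these data known. Pairing by replicate number was checked from correlations of deviations from day means, which exceeded 0.1 in 18 of 18 pairs of samples within the days P0 to P3 (lowest 0.138) and in 3 of 3 between P3 and P4. Over all 5 days it was 29 of 30, so for comparisons over all days only the split of first replicates, seen in the spread of the arrays, was used as a block in the report. Pairs of unlike number were not correlated, so the check cannot tell pairing by number from that split. In RefSeq, 6 pairs of Hox gene models overlap, with 10 members in them. Among these are Hoxd10 with Hoxd11, Hoxa5 with Hoxa3 and Hoxd4 with Hoxd3. The probes' positions were not used here, so whether a probe set reads only its own gene of such a pair was not tested.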

Additional observations from a re-analysis of the deposited data

How the results depend on the processing

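In P4 against P0 to P3, the 6 genes called, Hoxa10, Hoxc10 and Hoxd11 kept their direction under every alternative run. Neither block can turn a direction, since every day holds each replicate number once and a block leaves the differences unchanged. For the other genes the direction was compared on replicates 2 and 3 alone. There Hoxa6 (-0.08) and Hoxd3 (-0.09) turned for this comparison. Hoxa10 (0.03), Hoxb1 (-0.02), Hoxb3 (-0.02) and Hoxc5 (0.01) turned for P4 against P3, and so did the slopes of Hoxb3 and Hoxb9 (-0.04). None of these was called. With the replicate block, 12 Hox genes were called for P4 against P0 to P3 (12.1% of all tested genes), 12 in the F test (12.5%), 3 for the slope (8.49%) and 6 for P4 against P3 (3.55%). Replicate numbers do not pair the samples over all 5 days by the rule used. With first replicates as a block the counts were 11 (11.5%), 12 (11.7%), 2 (7.72%, without Hoxc4) and 6 (3.35%). Replicates 2 and 3 alone gave 1 gene in the F test (Hoxc4, 5.31%) and 0 for the slope (3.49%). Array weights gave 9 in the F test (13.6%), with Hoxb4 among them. Scaling to a common interquartile range gave 1 for the slope (Hoxd4, 3.6%). Leaving out single samples gave 2 to 8 for P4 against P0 to P3 (3.21% to 6.49% of all tested genes) and 0 to 1 for the slope (1.54% to 3.32%). It gave 0 to 1 for P4 against P3 (0.654% to 1.58%) and 0 to 5 in the F test (3.61% to 5.53%). The slope count of 1 was Hoxd4, without P0 replicate 1 or P3 replicate 2. The other alternatives (quantile normalization, no filter or another filter on dim genes, the mean of probe sets) kept all counts within 1.5 times. The count above background was 27 to 28 without single arrays, 29 on replicates 2 and 3 alone, and 19 with the 99th percentile of the receptor genes as the limit. The genes lost at that higher limit were Hoxa2, Hoxb1, Hoxb2, Hoxd3, Hoxa6, Hoxa7, Hoxc4 and Hoxd8, each below it on at least 1 array. Detection in groups 1 to 3 and 4 to 8 thus depends on the limit. The share of all genes under these settings was not computed. Dim genes are limited by background, which compresses their differences if it was not removed, and this was not tested.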
